A study of Homo sapiens with 18 samples.

Results

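The genes described here build and load HLA class I molecules, the cell surface proteins that show peptides from inside a cell to cytotoxic T cells and natural killer cells. The 9 genes were the heavy chain genes *HLA-B*, *HLA-C*, *HLA-E* and *HLA-F*, the light chain gene *B2M*, the peptide transporter genes *TAP1* and *TAP2*, the loading gene *TAPBP* and the transactivator gene *NLRC5*. They were found by gene symbol among the 40266 symbols of the expression table, and all 9 were among the 16093 genes tested.

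RNA sequencing was done on 18 libraries of 2 human pancreatic ductal adenocarcinoma (PDAC) cell lines, with 3 replicates, prepared from separate passages, in each of 6 groups. Panc1 was established from a primary tumor and served as the mesenchymal-like model, whereas Panc89 came from a lymph node metastasis and served as the epithelial model. Each line was sequenced as untreated parental cells and as Holoclone and Paraclone cells, which had been expanded from single cells and selected by the shape of their colonies. Holoclone cells stand for the cancer stem cell population and Paraclone cells for the more differentiated one. Each Holoclone or Paraclone group consists of passages of 1 clone, so that p-values measure the spread between passages, and a property of Holoclone or Paraclone cells and a property of that single clone cannot be told apart.

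A class I molecule is a heavy chain bound to the light chain B2M and to a short peptide. Peptides are cut by the proteasome, which can exchange its catalytic subunits for those of the immunoproteasome, are pumped into the endoplasmic reticulum by the TAP1-TAP2 transporter and are fitted to the heavy chain by tapasin, the product of *TAPBP*, with further trimming by ERAP1 and ERAP2. NLRC5 switches on the promoters of class I genes together with the RFX and NF-Y factors, and interferon acts on the same promoters through IRF factors. Tumors often carry low levels of these genes, which limits recognition by T cells.

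Values are TPM, the abundance of a transcript relative to all transcripts of its library, scaled by transcript length, so that levels of different genes can be set side by side. They keep no library total, so the depth behind a value is unknown and no counting interval can be given. Differences were tested with limma on log2(TPM + 1) over all 16093 genes, and a gene is called higher or lower if its p-value, adjusted by Benjamini-Hochberg over all of these genes, was under 0.05. The log2(TPM + 1) scale understates the change of low genes such as *NLRC5*. As the libraries are bulk samples of cultured cells, fewer cells expressing a gene and less RNA per cell cannot be told apart.

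The line labels were checked on marker genes before the comparisons. The mesenchymal marker *VIM* lay at 2021 TPM or above in every Panc1 library and at or below 0.456 TPM in every Panc89 library, and the epithelial marker *CDH1* at or above 73.3 TPM in Panc89 and at or below 3.51 TPM in Panc1. Of 5 listed mesenchymal-like markers, 4 were lower and 0 higher in parental Panc89 than in parental Panc1. Of 7 epithelial markers, 5 were higher and 1 was lower. Over all genes 27.5% were higher and 38.5% lower. Mean log2(TPM + 1) of *KRT8* was 10.4 in parental Panc1 and 9.57 in parental Panc89. The summed epithelial markers were similar, at 3549 and 3467 TPM. Replicates correlated with r from 0.954 to 0.992 over the tested genes. Of 10 leukocyte markers, *MS4A1* was at 0 in all 18 libraries, *CD3E* and *CD3D* did not exceed 0.167 TPM and *PTPRC* did not exceed 0.956 TPM. The summed leukocyte markers were nevertheless unequal in Panc89, with 13.2 to 15.8 TPM in parental, 17.0 to 19.9 TPM in Holoclone and 2.98 to 6.06 TPM in Paraclone cells against 2.03 to 4.04 TPM in the Panc1 groups, and *LAPTM5* and *CD14* made up most of this sum. Of 4 endothelial markers, *PECAM1* and *CDH5* brought the sum to 55.3 to 69.1 TPM in parental Panc89, against 1.03 to 2.18 TPM in Panc89 Holoclone, 3.01 to 9.01 TPM in Panc89 Paraclone and at most 0.281 TPM in Panc1 cells, whereas *VWF* and *TEK* stayed at or under 0.355 TPM throughout. The part of these markers in the class I results was not tested.

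Of the 9 genes, 7 lie in the major histocompatibility complex on chromosome 6. In GENCODE 44 on GRCh38 these are *HLA-F* at chr6:29722775-29738528, *HLA-E* at chr6:30489509-30494194, *HLA-C* at chr6:31268749-31272130, *HLA-B* at chr6:31353872-31367067, *TAP2* at chr6:32821833-32838739, *TAP1* at chr6:32845209-32853816 and *TAPBP* at chr6:33299694-33314284, with *HLA-F* and *HLA-E* on the plus strand and the others on the minus strand. *B2M* lies at chr15:44711358-44718851 and *NLRC5* at chr16:56989485-57083531, both on the plus strand. The immunoproteasome genes *PSMB8* at chr6:32840717-32844679 and *PSMB9* at chr6:32844136-32859851 lie in the same stretch. By its longest transcripts the interval of *PSMB9*, which is on the plus strand, spans *TAP1*. It also overlaps the start of *PSMB8*, which is on the minus strand. The RefSeq start sites of *PSMB9* at 32854192 and of *TAP1* at 32853704, on opposite strands, are 488 bases apart. A farther RefSeq start site of *TAP1*, at 32852761, is 1431 bases from that of *PSMB9*.

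Promoters are shown because the text below compares how these genes moved together. For 7 of the 9 members the RefSeq table for GRCh38.p14 held a promoter, the exceptions being *HLA-E* and *NLRC5*. The 250 bases before the start site were searched on both strands for the interferon-stimulated response element, written GAAANNGAAA, for a form that is 1 base shorter, written GAANNGAAA, for the core TGACG of the X2 box of class I promoters, for the CCAAT box and for the kappa B core GGGGATTC. Among all 35116 promoter windows of this length, 3.02% held GAAANNGAAA, 6.56% held GAANNGAAA, 21.2% held TGACG, 32% held CCAAT and 0.772% held GGGGATTC. The motifs were chosen after the promoter sequences had been seen, so these rates cannot test for an excess among the members. The stretch that spans the matches is given for each gene in its direction of transcription, with matches in capitals, where a match on the other strand appears as its reverse complement.
HLA-B, chr6:31357228-31357359, minus strand: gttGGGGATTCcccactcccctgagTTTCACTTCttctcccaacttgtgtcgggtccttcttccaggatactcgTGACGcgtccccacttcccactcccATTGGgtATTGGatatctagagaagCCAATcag
HLA-C, chr6:31272141-31272287, minus strand: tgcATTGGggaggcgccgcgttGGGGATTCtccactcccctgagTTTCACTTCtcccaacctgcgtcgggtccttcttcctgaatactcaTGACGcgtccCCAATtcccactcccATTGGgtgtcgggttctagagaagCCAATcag
HLA-F, chr6:29723275-29723384, plus strand: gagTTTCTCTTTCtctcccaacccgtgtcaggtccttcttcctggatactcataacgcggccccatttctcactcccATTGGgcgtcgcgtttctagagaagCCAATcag
B2M, chr15:44711370-44711475, plus strand: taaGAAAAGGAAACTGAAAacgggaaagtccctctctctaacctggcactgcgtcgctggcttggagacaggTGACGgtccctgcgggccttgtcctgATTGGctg
TAP1, chr6:32853820-32853954, minus strand: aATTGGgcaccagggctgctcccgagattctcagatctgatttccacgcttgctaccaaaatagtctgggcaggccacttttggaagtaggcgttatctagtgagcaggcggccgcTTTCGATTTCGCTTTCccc
TAP2, chr6:32838767-32838805, minus strand: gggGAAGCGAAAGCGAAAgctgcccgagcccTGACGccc
TAPBP, chr6:33314080-33314101, minus strand: gagGAAAGTGAAAGTGAAAgga

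In these windows GAAANNGAAA was found in *HLA-F*, *B2M*, *TAP1*, *TAP2* and *TAPBP*, with overlapping copies in *B2M*, *TAP1* and *TAPBP*, and the shorter form in *HLA-B*, *HLA-C* and, overlapping the longer one, *TAP2*. The core TGACG was found in *HLA-B*, *HLA-C*, *B2M* and *TAP2*, CCAAT in the 3 heavy chain genes, *B2M* and *TAP1*, and GGGGATTC in *HLA-B* and *HLA-C*. The window before the farther start site of *TAP1* held no match. A match describes the letters of the reference genome in this window and is neither a binding site nor a cause of a change in these cells.

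Some of the values are uncertain because transcripts share sequence. Of the 31-base words in the *HLA-C* transcript, 19.0% also occur in other HLA genes, and for *HLA-F*, *HLA-E* and *HLA-B* the shares were 15.0%, 8.26% and 7.27%. Counting any other gene, 62.6% of the words of *HLA-B*, 27.6% of *HLA-F* and 13.9% of *HLA-E* were shared. The single gene outside HLA with the most shared words held 44% of the words of *HLA-B*, 30.8% of *TAP2* and 29.2% of *TAPBP*. For *TAP1* and *HLA-F* it held 20.9% and 12.4%, whereas *B2M* and *NLRC5* shared none. Reads were matched to reference transcripts, and HLA alleles can differ between lines, so for the HLA genes a difference in level and a difference in allele cannot be told apart between Panc1 and Panc89.

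The parental lines were compared first, as the question was how this epithelial and this mesenchymal-like PDAC line differ. Each kind is represented by a single line. Its epithelial or mesenchymal-like state, its origin and other properties of the line therefore cannot be told apart, here or in later comparisons of the lines. The parental replicates are passages of a line, so that these p-values also measure the spread between passages. Of the 9 genes, 6 were higher in parental Panc89 than in parental Panc1 and 0 were lower, against 66% of all tested genes called in this comparison, 27.5% higher and 38.5% lower. The heavy chain genes *HLA-B* and *HLA-F* and the transactivator *NLRC5* led the difference, whereas the light chain *B2M* lay at the same level within the spread of its replicates. The median log2 difference of the 9 genes was 0.76, and that of all genes tested was −0.18. Among all called genes 41.6% were higher, and 48.3% and 51.8% after scaling to the upper quartile and by median ratios. The libraries of the parental lines did not overlap for 6 of the 9 genes, as for 73.3% of all genes.

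**Figure D1:**
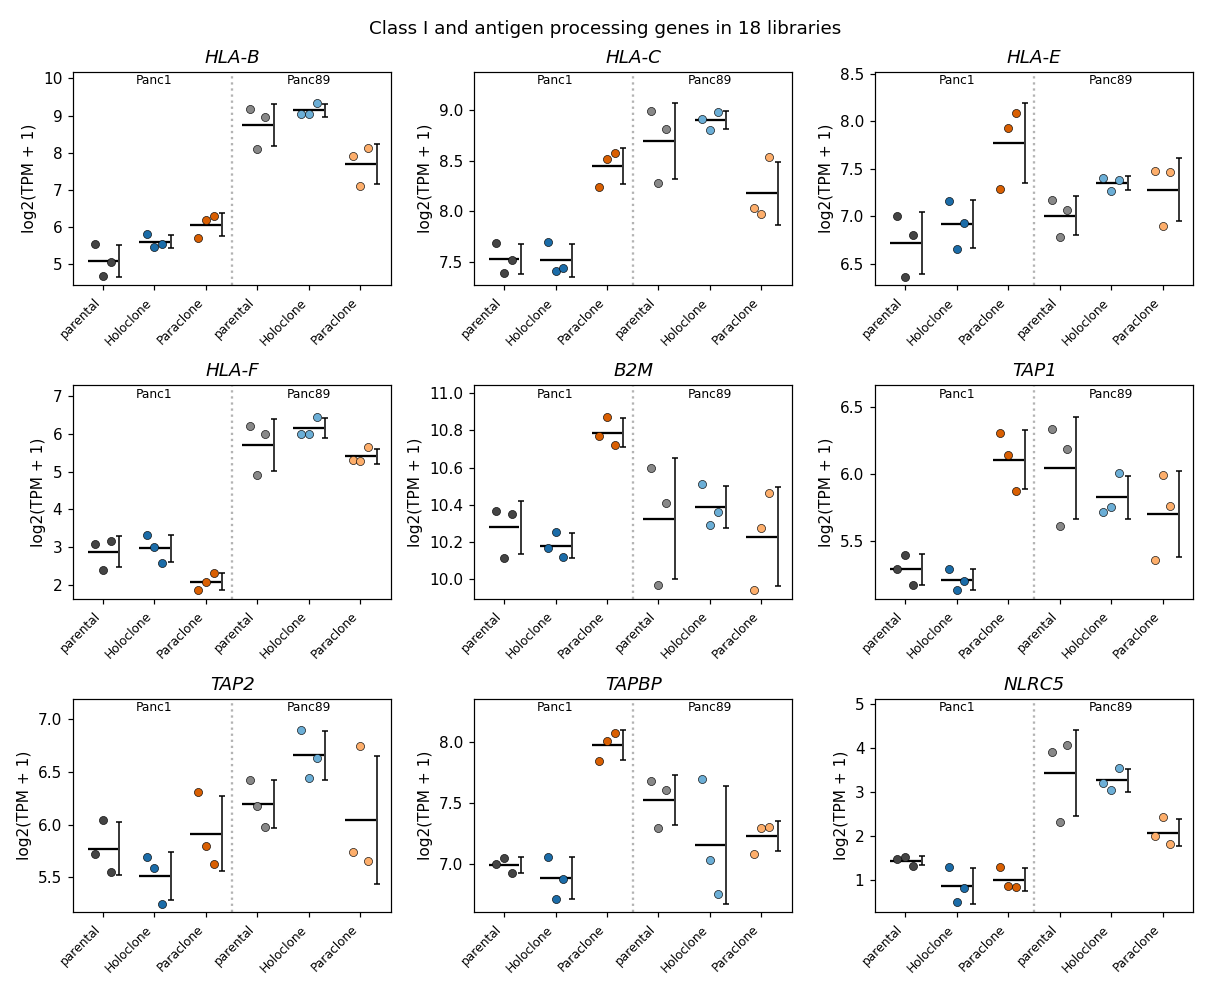
Level of each of the 9 genes in the 18 libraries, as log2(TPM + 1) on the vertical axis and by group on the horizontal axis, with a dot per library, a line at the mean and a whisker for the SD (n = 3). *HLA-B* and *HLA-F* separate the lines without overlap, while *B2M*, *TAP1* and *TAPBP* in Panc1 Paraclone libraries lie above every Panc1 parental and Holoclone library.

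*HLA-B*, a classical heavy chain, had 45.3, 24.6 and 32.3 TPM in the parental Panc1 libraries and 582, 274 and 494 TPM in the parental Panc89 libraries. Every Panc89 library lay far above every Panc1 library, and the second Panc89 replicate was the lowest of its group. The log2 difference was 3.66 ± 0.30 (SE, n = 3 per group, limma adjusted p = 2.6e-08), or 12.6-fold.

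*HLA-F*, a non-classical heavy chain that is largely kept inside the cell, had 7.45, 4.27 and 8.00 TPM in parental Panc1 and 73.4, 29.3 and 62.5 TPM in parental Panc89. The groups again did not overlap, and the second replicate was the lowest in both lines. The log2 difference was 2.83 ± 0.30 (SE, limma adjusted p = 5.4e-07).

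*HLA-C*, the other classical heavy chain, had 204, 166 and 182 TPM in parental Panc1 and 509.7, 309.8 and 449 TPM in parental Panc89. All Panc89 libraries were above all Panc1 libraries, and the log2 difference was 1.17 ± 0.18 (SE, limma adjusted p = 3.2e-05). *HLA-E*, which presents leader peptides of other heavy chains to natural killer cells, had 127, 81.3 and 110.3 TPM in parental Panc1 and 143, 109 and 132 TPM in parental Panc89. These groups overlapped, and the log2 difference of 0.29 (95% interval −0.18 to 0.75, limma adjusted p = 0.267) did not pass the test.

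*NLRC5* was at 1.83, 1.87 and 1.51 TPM in parental Panc1 and at 14.2, 4.002 and 15.7 TPM in parental Panc89. The groups did not overlap although the second Panc89 library lay far below the others, and the log2 difference was 1.99 ± 0.36 (SE, limma adjusted p = 0.00014). *B2M* was the most abundant of the 9 genes, with 1320.2, 1108 and 1307 TPM in parental Panc1 and 1551, 1001 and 1359 TPM in parental Panc89. Its groups overlapped, and its log2 difference of 0.05 had a 95% interval from −0.28 to 0.37 (limma adjusted p = 0.802).

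Among the genes of transport and loading, *TAP1* had 38.109, 41.0 and 35.0 TPM in parental Panc1 and 79.7, 47.8 and 71.7 TPM in parental Panc89, a log2 difference of 0.76 ± 0.19 (SE, limma adjusted p = 0.0021). *TAPBP* had 127, 131 and 120.3 TPM in parental Panc1 and 204, 156 and 194 TPM in parental Panc89, a log2 difference of 0.53 ± 0.18 (SE, limma adjusted p = 0.018). Neither gene overlapped between the lines. The call of *TAPBP* rested on single libraries, as the adjusted p was 0.0528 without parental Panc1 replicate 3, 0.0704 without parental Panc89 replicate 1 and 0.0562 without parental Panc89 replicate 3. *TAP2*, the partner of *TAP1*, had 51.9, 65.1 and 45.8 TPM in parental Panc1 and 84.9, 71.5 and 62.0 TPM in parental Panc89, with overlapping groups and a log2 difference of 0.42 that did not pass (limma adjusted p = 0.165). After scaling the libraries to their upper quartile or by median ratios it passed, at 0.58 and 0.66 (limma adjusted p = 0.0338 and 0.0172).

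The heavy chain transcripts were composed differently in the lines. *HLA-C* made up 56.1% ± 3.6 (SD, n = 3) of the summed TPM of the 4 heavy chains in parental Panc1 and *HLA-E* 31.8% ± 2.1, with *HLA-B* at 10.1% ± 1.5. In parental Panc89, *HLA-B* made up 42.0% ± 3.5 and *HLA-C* 40.4% ± 2.2, with *HLA-E* at 12.6% ± 2.2. Every Panc89 library lay above every Panc1 library for the share of *HLA-B* and below for that of *HLA-E*. The summed heavy chains came to 331 ± 54 TPM in parental Panc1 and 1056 ± 302 TPM in parental Panc89, or 26.5% ± 2.3 and 80.1% ± 6.9 of the TPM of *B2M*.

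**Figure D2:**
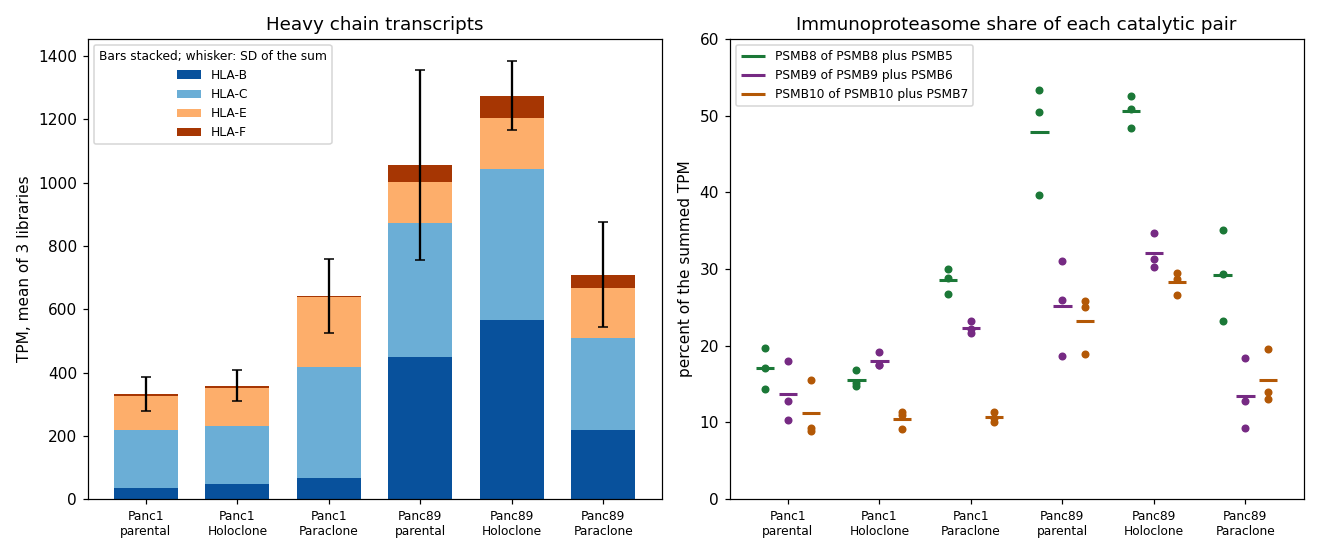
Left, mean TPM of the 4 heavy chain genes stacked by group, with a whisker for the SD of their sum (n = 3 libraries). Right, the immunoproteasome subunit's percent of the summed TPM of each pair of exchangeable catalytic subunits, with a dot per library and a line at the mean: in Panc89, all 3 shares lie lower in every Paraclone library than in every Holoclone library.

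Holoclone and Paraclone cells were then compared within each line. In Panc1 cells, 5 of the 9 genes were lower in Holoclone than in Paraclone cells and 1 was higher, against 37.3% of all genes called, 9.97% lower and 27.4% higher. The lower genes were *TAPBP*, *HLA-C*, *TAP1*, *HLA-E* and *B2M*, and the higher one was *HLA-F*. The median log2 difference of the 9 genes was −0.61, against 0.19 for all genes tested. Scaling to the upper quartile or by median ratios brought the median of all genes to between −0.04 and 0.02 in each comparison, and moved the share of higher genes among those called in Panc1 from 73.3% to 51.3% and 47.7%. The libraries did not overlap for 6 genes, as for 51.3% of all genes.

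In Panc89 cells the count of members called was near the share over all genes. Of the 9 genes, 3 were higher in Holoclone than in Paraclone cells and 0 were lower, against 35.7% of all genes called, 22.4% higher and 13.3% lower. The 3 genes were *HLA-B*, *NLRC5* and *HLA-C*, and only *HLA-C* was also called in Panc1, in the opposite direction. The median log2 difference of the 9 genes was 0.61, against 0.09 for all genes, and the libraries did not overlap for 4 genes, as for 40.8% of all genes. Of all called genes 62.8% were higher, against 52.5% and 49.3% under the scalings.

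The difference between the lines was tested by itself, as the Holoclone against Paraclone change in Panc89 minus that in Panc1. For 7 of the 9 genes it was above 0 and passed the test and for 0 it was below 0 and passed, against 35.1% of all genes that passed, 14.8% above and 20.4% below 0. Of all genes that passed 42% were above 0, and 51.5% under either scaling. The 7 genes were *HLA-B*, *HLA-C*, *HLA-E*, *B2M*, *TAP1*, *TAP2* and *TAPBP*, with a median over the 9 genes of 1.02, against −0.11 for all genes. *HLA-F*, at −0.14 (limma adjusted p = 0.833), and *NLRC5*, at 1.32 (limma adjusted p = 0.053), did not pass. *NLRC5* passed with a filter of 5 TPM (0.0496), under upper quartile (0.0406) and median-of-ratios scaling (0.0406), with the compared groups fitted alone (0.0141) and without Panc1 Holoclone replicate 1 (0.0377) or Panc89 Paraclone replicate 2 (0.0389), at 1.32 to 1.54.

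**Figure D3:**
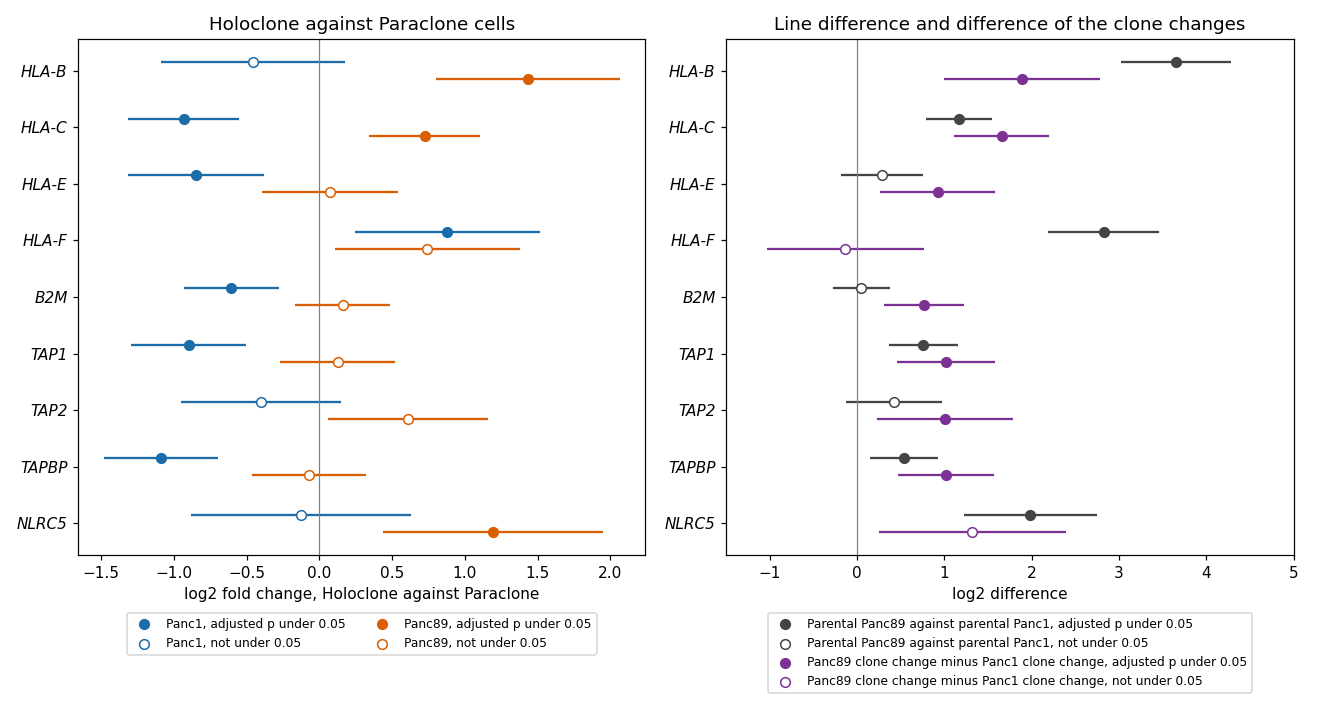
Log2 differences of the 9 genes with 95% intervals, where filled dots mark an adjusted p under 0.05. Left, Holoclone against Paraclone cells in Panc1 and in Panc89. Right, parental Panc89 against parental Panc1 and the Panc89 clone change minus the Panc1 clone change, which lies above 0 for every gene but *HLA-F*.

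Among the classical heavy chains, *HLA-C* had 207, 169 and 172 TPM in Panc1 Holoclone and 302, 366 and 381 TPM in Panc1 Paraclone cells. In Panc89 it had 481, 447 and 507 TPM in Holoclone and 260.0, 250.3 and 370.2 TPM in Paraclone cells. Both pairs of groups were apart without overlap, with the Paraclone libraries above in Panc1 and below in Panc89. The log2 change was −0.93 ± 0.18 in Panc1 (SE, limma adjusted p = 0.00076) and 0.72 ± 0.18 in Panc89 (SE, limma adjusted p = 0.0052), and these differed by 1.66 ± 0.25 (SE, limma adjusted p = 0.00013).

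*HLA-B* had 54.8, 43.0 and 45.8 TPM in Panc1 Holoclone and 51.0, 71.7 and 77.6 TPM in Panc1 Paraclone cells, against 524, 528 and 642 TPM in Panc89 Holoclone and 238, 136 and 278 TPM in Panc89 Paraclone cells. The Panc1 groups overlapped, and the Panc89 groups did not. On the log2 scale the change was −0.46 in Panc1 (95% interval −1.09 to 0.18, limma adjusted p = 0.254), which did not pass, and 1.43 ± 0.30 in Panc89 (SE, limma adjusted p = 0.0014), and the difference of 1.89 ± 0.42 passed (SE, limma adjusted p = 0.0025).

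The non-classical heavy chains did not follow one pattern. *HLA-E* had 142, 99.7 and 121 TPM in Panc1 Holoclone and 155, 242 and 270.1 TPM in Panc1 Paraclone cells, groups that did not overlap, and fell by 0.85 on the log2 scale in Holoclone cells (limma adjusted p = 0.0063). In Panc89 it had 168, 153 and 165 TPM in Holoclone and 177, 118 and 176 TPM in Paraclone cells, which overlapped, with a log2 difference of 0.07 (95% interval −0.40 to 0.54). The difference of the clone changes was 0.92 ± 0.31 (SE, limma adjusted p = 0.031). This call did not hold with no filter on low values (adjusted p = 0.0576) or when 1 of 7 of the 12 libraries was left out, namely Panc1 Holoclone replicate 2 or 3, Panc1 Paraclone replicate 2 or 3, Panc89 Holoclone replicate 1 or 3, or Panc89 Paraclone replicate 2, with adjusted p from 0.0508 to 0.0814.

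*HLA-F* had 8.92, 6.97 and 5.02 TPM in Panc1 Holoclone and 2.65, 3.23 and 3.98 TPM in Panc1 Paraclone cells. It was the one member above its Paraclone libraries in both lines, as Panc89 Holoclone cells had 63.3, 62.4 and 86.2 TPM and Panc89 Paraclone cells 38.7, 37.5 and 48.8 TPM. The log2 change of 0.88 ± 0.30 in Panc1 passed (SE, limma adjusted p = 0.029), and that of 0.74 ± 0.30 in Panc89 did not (SE, limma adjusted p = 0.0649). In Panc1 the call was lost without Holoclone replicate 1 (adjusted p = 0.121) or 2 (0.0695) and without Paraclone replicate 1 (0.0924) or 2 (0.0714). It was also lost under both scalings, at 0.67 and 0.65 (adjusted p = 0.110 and 0.122).

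*B2M*, which every class I molecule needs, had 1148, 1219 and 1112 TPM in Panc1 Holoclone and 1743, 1873 and 1684 TPM in Panc1 Paraclone cells. It had 1460, 1252 and 1314 TPM in Panc89 Holoclone and 983, 1240.5 and 1413 TPM in Panc89 Paraclone cells. Panc1 Paraclone libraries lay above all other libraries, whereas the Panc89 clones overlapped. It changed on the log2 scale by −0.61 ± 0.15 in Panc1 (SE, limma adjusted p = 0.0056) and 0.16 in Panc89 (95% interval −0.17 to 0.49, limma adjusted p = 0.46), and the difference was 0.77 ± 0.22 (SE, limma adjusted p = 0.012).

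*TAP1* had 38.06, 34.1 and 35.7 TPM in Panc1 Holoclone and 78.2, 69.5 and 57.4 TPM in Panc1 Paraclone cells, against 51.4, 52.9 and 63.4 TPM in Panc89 Holoclone and 39.9, 62.6 and 53.1 TPM in Panc89 Paraclone cells. The Panc1 clones did not overlap and the Panc89 clones did. The log2 change was −0.90 ± 0.19 in Panc1 (SE, limma adjusted p = 0.0013) and 0.12 in Panc89 (95% interval −0.27 to 0.52, limma adjusted p = 0.655), with a difference of 1.02 ± 0.26 (SE, limma adjusted p = 0.0069).

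*TAPBP* showed the largest change of the 9 genes between the Panc1 clones, with 132, 104 and 117 TPM in Holoclone and 228, 256 and 268 TPM in Paraclone cells. In Panc89 it had 206, 130 and 107 TPM in Holoclone and 135, 156 and 157 TPM in Paraclone cells, where the first Holoclone replicate lay above and the other two below the Paraclone libraries. On the log2 scale the change was −1.09 ± 0.18 in Panc1 (SE, limma adjusted p = 0.00026) and −0.07 in Panc89 (95% interval −0.46 to 0.32), and the difference was 1.02 ± 0.26 (SE, limma adjusted p = 0.0065).

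*TAP2* had 50.6, 47.2 and 37.1 TPM in Panc1 Holoclone and 78.4, 54.7 and 48.4 TPM in Panc1 Paraclone cells, against 118, 85.7 and 98.2 TPM in Panc89 Holoclone and 52.5, 106 and 49.3 TPM in Panc89 Paraclone cells. Both pairs overlapped, the Panc89 pair through the second Paraclone library alone. Neither change passed, at −0.40 in Panc1 (limma adjusted p = 0.249) and 0.61 in Panc89 (limma adjusted p = 0.0807), and without Panc89 Paraclone replicate 2 the Panc89 change was 0.96 (adjusted p = 0.0025). Under both scalings the Panc1 change passed, at −0.65 and −0.67 (adjusted p = 0.0406 and 0.0327). The difference of the clone changes was 1.01 ± 0.37 (SE, limma adjusted p = 0.043) and was lost when 1 of 8 libraries was left out, namely Panc1 Holoclone replicate 2 or 3, Panc1 Paraclone replicate 1 or 2, Panc89 Holoclone replicate 1 or 3, or Panc89 Paraclone replicate 1 or 3 (adjusted p from 0.0579 to 0.111), and also with no filter (0.0787) and with the compared groups fitted alone (0.0756).

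*NLRC5* was low in all Panc1 clones, with 1.49, 0.420 and 0.780 TPM in Holoclone and 1.48, 0.840 and 0.802 TPM in Paraclone cells. In Panc89 it had 8.31, 7.29 and 10.8 TPM in Holoclone and 3.02, 4.39 and 2.54 TPM in Paraclone cells. The Panc1 groups overlapped and the Panc89 groups did not. Its log2 change was −0.13 in Panc1 (95% interval −0.89 to 0.63) and 1.19 ± 0.36 in Panc89 (SE, limma adjusted p = 0.016), and the Panc89 call was lost without Holoclone replicate 3 (adjusted p = 0.0618) or Paraclone replicate 3 (0.0643). In every Panc1 library *NLRC5* was at or below 1.87 TPM, and in every Panc89 library at or above 2.54 TPM.

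Each clone was also set against its parental line, and only in Panc1 Paraclone cells were most of the 9 genes called. Both comparisons of a line share their parental libraries, so they are given side by side. Panc1 Holoclone cells had 0 of 9 genes called by limma, with 0 at an unadjusted p under 0.05, against 10.9% of all genes called, 5.87% higher and 5.06% lower. Its libraries did not overlap with the parental ones for 1 gene, *NLRC5*, which lay below them, as for 30.3% of all genes. Panc1 Paraclone cells had 6 higher and 0 lower, against 28.6% of all genes called, 7.31% higher and 21.3% lower, and did not overlap for 8 genes, as for 42.9% of all genes. Of all called genes 25.6% were higher, against 47.4% and 53% under the scalings. The 6 genes were *HLA-E* at 1.05 ± 0.22, *TAPBP* at 0.98 ± 0.18, *HLA-B* at 0.97 ± 0.30, *HLA-C* at 0.92 ± 0.18, *TAP1* at 0.82 ± 0.19 and *B2M* at 0.51 ± 0.15 (log2 difference ± SE, limma adjusted p from 0.00098 to 0.023), and each lay above every parental library. The call of *HLA-B* was lost without parental replicate 2 (adjusted p = 0.0964) or 3 (0.0590) and without Paraclone replicate 2 (0.0777) or 3 (0.0845), and that of *B2M* without parental replicate 2 (0.0813) or Paraclone replicate 2 (0.0808). *HLA-F* was below every parental library at −0.80 (limma adjusted p = 0.0577) and passed without parental replicate 2, at −1.04 (adjusted p = 0.0242). *NLRC5* also lay below every parental library, at −0.44, and did not pass (limma adjusted p = 0.407).

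Panc89 Holoclone cells had 0 of 9 genes called against their parental line by limma, with 0 at an unadjusted p under 0.05, against 24.7% of all genes called, 16.1% higher and 8.61% lower, where the higher genes made up 65.2% of the called ones and 51.3% and 51% under the scalings. The libraries did not overlap for 2 genes, *HLA-E* and *TAP2*, which lay above the parental ones, as for 41.2% of all genes. *TAPBP* passed without Panc89 Holoclone replicate 1, at −0.63 (adjusted p = 0.0036). Panc89 Paraclone cells had 2 lower and 0 higher, against 19.4% of all genes called, 10% lower and 9.37% higher, and the libraries overlapped for all 9 genes, with 35.8% of all genes not overlapping. These were *NLRC5* at −1.35 ± 0.36 (SE, limma adjusted p = 0.014) and *HLA-B* at −1.04 ± 0.30 (SE, limma adjusted p = 0.021), and for both the second parental library lay within the range of the Paraclone libraries. *HLA-C* was at −0.52 (limma adjusted p = 0.0561).

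The Panc89 Paraclone result depended on single libraries. Without parental replicate 1 or 3, neither *HLA-B* (adjusted p = 0.113 and 0.0882) nor *NLRC5* (0.0771 and 0.0827) passed. *HLA-B* was also lost without Paraclone replicate 2 (0.0756) and *NLRC5* without Paraclone replicate 3 (0.0582). Without parental replicate 2, *HLA-C* at −0.73 (0.0073) and *TAP1* at −0.56 (0.0379) passed as well, and without Paraclone replicate 3 *HLA-C* passed at −0.70 (0.0170). The second parental Panc89 library was the lowest of its group for *HLA-B*, *HLA-C*, *HLA-E*, *HLA-F*, *B2M*, *TAP1*, *TAPBP* and *NLRC5*.

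Heavy chain composition separated the clones as well. Within Panc89, *HLA-B* made up 44.2% ± 1.7 (SD, n = 3) of the heavy chain TPM of Holoclone libraries and 30.1% ± 4.4 of that of Paraclone libraries, and *HLA-E* 12.8% ± 0.90 and 22.2% ± 2.4, without overlap. Within Panc1, *HLA-B* made up 13.4% ± 0.12 in Holoclone and 10.4% ± 0.32 in Paraclone libraries, again without overlap, and *HLA-C* between 50.0% and 59.1% in every clone library. The summed heavy chains were 358 ± 49 TPM in Panc1 Holoclone and 642 ± 117 TPM in Panc1 Paraclone cells, and 1276 ± 110 TPM in Panc89 Holoclone and 709 ± 166 TPM in Panc89 Paraclone cells. Relative to *B2M* they came to 30.99% ± 4.9, 36.4% ± 7.1, 95.5% ± 10.9 and 59.3% ± 14.6. The ratio of *TAP1* to *TAP2* was 0.813 ± 0.13 (SD, n = 3) for the Holoclone and 1.15 ± 0.14 for the Paraclone libraries of Panc1.

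The order of the 6 groups differed between genes. *HLA-B*, *HLA-C*, *HLA-F* and *TAP2* had their highest mean in Panc89 Holoclone cells and *NLRC5* in parental Panc89 cells, whereas *HLA-E*, *B2M*, *TAP1* and *TAPBP* had theirs in Panc1 Paraclone cells. For *B2M* and *TAPBP* the first group was apart from the next without overlap, and for *TAP2* the first was apart from parental Panc89, whereas for the other 6 genes the 2 highest groups overlapped. *HLA-B* and *HLA-F* had all 3 Panc89 groups above all Panc1 groups without overlap, and so did *NLRC5*.

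The other genes of the pathway were described from lists and by the same fit. Of 9 genes for peptide transport and loading, which include *TAP1*, *TAP2* and *TAPBP*, 5 were lower and 0 higher in Panc1 Holoclone than in Paraclone cells, and 5 were higher and 0 lower in Panc89, with medians of −0.63 and 0.51. Over all genes 9.97% were lower and 27.4% higher in Panc1, and 22.4% higher and 13.3% lower in Panc89, with medians of 0.19 and 0.09. Under both scalings 8 were lower in Panc1. In Panc89 the count was 1 without Paraclone replicate 1, 2 without Holoclone replicate 1 and 6 without Paraclone replicate 2. It was 3 without Holoclone replicate 3 or Paraclone replicate 3, under median-of-ratios scaling, with no filter and with the replicate block. The difference between the lines passed for 8 of the 9 genes, all above 0, against 14.8% of all genes.

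The aminopeptidase gene *ERAP2*, which trims peptides in the endoplasmic reticulum, had the largest change of the list between the Panc1 clones. It had 4.06, 3.70 and 3.81 TPM in Panc1 Holoclone and 40.3, 38.7 and 33.1 TPM in Panc1 Paraclone cells, and 108, 52.0 and 39.0 TPM in Panc89 Holoclone and 17.6, 57.7 and 22.6 TPM in Panc89 Paraclone cells. The Panc1 groups were far apart and the Panc89 groups overlapped. The log2 change was −2.98 ± 0.35 in Panc1 and 1.06 ± 0.35 in Panc89, and the difference of 4.03 ± 0.50 passed (SE, limma adjusted p = 1.7e-05). Its relative *ERAP1* had 23.1, 20.9 and 22.8 TPM in Panc1 Holoclone and 63.9, 57.2 and 61.0 TPM in Panc1 Paraclone cells, and 29.2, 21.8 and 22.6 TPM in Panc89 Holoclone and 7.25, 12.0 and 10.3 TPM in Panc89 Paraclone cells. Both pairs were apart, in opposite directions, with log2 changes of −1.41 ± 0.17 and 1.25 ± 0.17 (SE, limma adjusted p = 9.5e-06 and 3.1e-05).

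The remaining loading genes were chaperones of the endoplasmic reticulum and a tapasin relative. *PDIA3*, a member of the loading complex, was lower in Panc1 Holoclone cells and higher in Panc89 Holoclone cells than in Paraclone cells, at −0.63 and 0.49 (limma adjusted p = 0.0104 and 0.0424). *CANX*, which holds new heavy chains, was higher in Panc89 Holoclone cells by 0.51 (limma adjusted p = 0.0102), and *TAPBPL*, which edits the bound peptides, by 0.81 (limma adjusted p = 0.0225). *TAPBPL* also separated the lines, with 2.95 to 3.66 TPM in parental Panc1 and 32.1 to 40.2 TPM in parental Panc89, a log2 difference of 3.16 ± 0.26 (SE, limma adjusted p = 2.9e-08). *CALR* passed in none of these 3 comparisons.

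**Figure D4:**
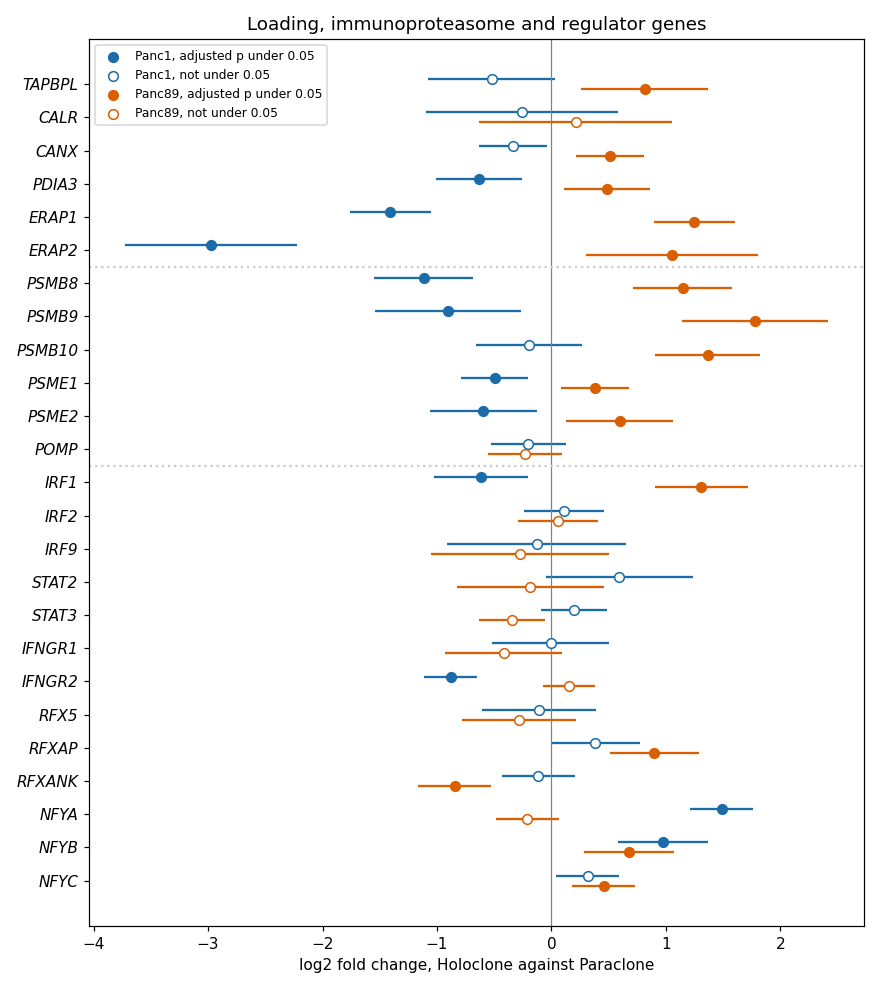
Log2 fold change of Holoclone against Paraclone cells with 95% intervals for genes of loading, the immunoproteasome and class I regulation, in Panc1 and in Panc89, where filled dots mark an adjusted p under 0.05. *ERAP1*, *ERAP2*, *PSMB8*, *PSMB9*, *PSME1*, *PSME2*, *PDIA3* and *IRF1* lie below 0 in Panc1 and above 0 in Panc89.

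The immunoproteasome exchanges 3 catalytic subunits and the cap of the proteasome. Of 6 genes, 4 were lower and 0 higher in Panc1 Holoclone than in Paraclone cells, 5 were higher and 0 lower in Panc89, and the difference between the lines passed for 5, all above 0. The shares of all genes called in these directions were 9.97%, 22.4% and 14.8%. The Panc1 count went down to 1 without Panc1 Holoclone replicate 3 and to 2 without Panc1 Holoclone replicate 1 or Panc1 Paraclone replicate 1 or 2, and the Panc89 count to 3 without Holoclone replicate 1 or 2 or Paraclone replicate 1 or 3. Under both scalings 5 were lower in Panc1, and 3 were higher and 1 lower in Panc89. The 7 genes listed for the constitutive proteasome had 2 lower in Panc1 and 1 higher in Panc89. In Panc1 the count was 6 under both scalings, and 1 with no filter, with the replicate block and without any single library other than Panc1 Paraclone replicate 3.

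*PSMB8*, a catalytic subunit encoded between *TAP2* and *TAP1*, had 30.9, 27.5 and 28.8 TPM in Panc1 Holoclone and 67.5, 65.0 and 59.9 TPM in Panc1 Paraclone cells. In Panc89 it had 205, 179 and 183 TPM in Holoclone and 59.9, 117 and 86.8 TPM in Paraclone cells, so that both pairs were apart. Its log2 change was −1.12 ± 0.20 in Panc1 and 1.15 ± 0.20 in Panc89 (SE, limma adjusted p = 0.00049 and 0.00042). *PSMB9*, another catalytic subunit, had 30.8, 35.4 and 28.6 TPM in Panc1 Holoclone and 74.6, 57.8 and 49.8 TPM in Panc1 Paraclone cells, and changed by −0.91 ± 0.30 in Panc1 and by 1.78 ± 0.30 in Panc89 (SE, limma adjusted p = 0.026 and 0.00026). *PSMB10* was higher in Panc89 Holoclone cells by 1.36 ± 0.22 (SE, limma adjusted p = 0.00016) and did not pass in Panc1.

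As a share of a pair of exchangeable subunits, *PSMB8* made up 15.6% ± 1.1 (SD, n = 3) of *PSMB8* plus *PSMB5* for the Holoclone and 28.5% ± 1.6 for the Paraclone libraries of Panc1, against 50.6% ± 2.1 and 29.2% ± 5.9 for those of Panc89. *PSMB9* made up 18.03% ± 0.98 and 22.3% ± 0.81 of *PSMB9* plus *PSMB6* in the Panc1 clones, and 32.1% ± 2.3 and 13.48% ± 4.6 in the Panc89 clones. Both shares were higher in every Panc1 Paraclone library and lower in every Panc89 Paraclone library than in the Holoclone libraries of the line. The share of *PSMB10* was 10.5% ± 1.2 and 10.7% ± 0.67 in the Panc1 clones, where the libraries overlapped, and 28.3% ± 1.5 and 15.5% ± 3.6 in the Panc89 clones. Although *PSMB9* and *TAP1* start close together, in Panc89 *PSMB9* passed the test between the clones and *TAP1* did not, and the difference between these genes was not tested.

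Of 29 regulators of class I genes, 7 were higher and 3 lower in Panc1 Holoclone than in Paraclone cells, and 5 were higher and 2 lower in Panc89, with medians of 0.11 and 0.08. Over all genes 27.4% were higher and 9.97% lower in Panc1, and 22.4% higher and 13.3% lower in Panc89, so that the regulators were near the background. The lower count in Panc1 was 1 without Panc1 Paraclone replicate 1 and 5 and 6 under the scalings. In Panc89 3 were higher and 1 lower without Paraclone replicate 3, and 4 were higher and 4 lower under median-of-ratios scaling. *IRF1*, an interferon-induced activator of these promoters, had 38.0, 38.9 and 36.9 TPM in Panc1 Holoclone and 75.4, 51.4 and 52.1 TPM in Panc1 Paraclone cells, and 138, 127 and 127 TPM in Panc89 Holoclone and 45.8, 58.1 and 53.0 TPM in Panc89 Paraclone cells. It was apart in both lines and in opposite directions, at −0.62 ± 0.19 and 1.31 ± 0.19 (SE, limma adjusted p = 0.019 and 7.5e-05), with a difference of 1.93 ± 0.27 (SE, limma adjusted p = 5.7e-05).

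The interferon signal genes and the promoter-binding factors had other patterns. Between the parental lines, 10 of the 29 regulators were higher and 8 lower in Panc89, with a median log2 difference of −0.02. Over all genes 27.5% were higher and 38.5% lower. Among the higher ones, *STAT2* and *IRF9*, which carry interferon signals to the nucleus, differed from parental Panc1 by 2.18 and 2.48 (limma adjusted p = 1.0e-05 and 2.1e-05). *RFXAP*, a subunit of the RFX factor, was higher in parental Panc89 by 1.54 and in Panc89 Holoclone cells by 0.90 (limma adjusted p = 2.0e-06 and 0.0012). *NFYA*, a subunit of the CCAAT-binding factor NF-Y, was higher in Panc1 Holoclone than in Paraclone cells by 1.49 ± 0.13 (SE, limma adjusted p = 3.6e-07), and *IFNGR2*, a chain of the interferon gamma receptor, was lower, at −0.88 ± 0.11 (SE, limma adjusted p = 1.3e-05).

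Within a line, the members moved together only in part. Over the 9 libraries of Panc1, the 36 pairs of members had Pearson correlations from −0.86 to 0.98 with a median of 0.43, and 22 were above 0. Over the 9 libraries of Panc89 they ran from −0.28 to 0.96 with a median of 0.38, and 32 were above 0. The genes share the same libraries, and these correlations are a description.

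The tested genes outside the lists with the most similar pattern over all 18 libraries, by Pearson correlation on log2(TPM + 1), were *ELF1* for *HLA-F* (r = 0.990), *RPL13* for *HLA-B* (0.971), *LMBRD2* for *TAPBP* (0.964), *MMP13* for *NLRC5* (0.951), *ANKRD42-DT* for *TAP2* (0.943), *ADGRG1* for *HLA-C* (0.936), *PSMA6* for *TAP1* (0.933), *LRP10* for *HLA-E* (0.909) and *APOL6* for *B2M* (0.842). The libraries belong to 6 groups of 2 lines, so that a difference between the lines alone gives a high correlation.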

How the data were processed

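The 18 RNA libraries fall, per the labels, into parental cells and the Holoclone and Paraclone variants of either line. The authors made mRNA libraries, sequenced them paired-end, quantified transcripts with kallisto 0.46.1 against Ensembl GRCh38 and summarized them per gene as scaled TPM with tximport. The deposited values are log2(TPM + 1) per gene symbol and library. The base of the logarithm was read from the values, since the TPM raised back from log2 summed to between 985339 and 988066 per library. The tests of the study itself were not used here.

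From these values, group means were fitted with limma 3.58.1 in R 4.3.3 (lmFit, eBayes with trend) over all 18 libraries. A gene was tested if 3 or more libraries reached 1 TPM, which left 16093 genes. Two-sided p-values were adjusted over them by the Benjamini-Hochberg method, with a threshold of 0.05. Every column of the expression table was assigned to a sample. The members and gene lists were chosen with earlier results of these data known. The 9 members are named in every comparison, other list genes by passing the threshold and by size of change, and similar genes by the highest correlation. Motifs were chosen after the promoter sequences had been seen.

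Alternatives were a pseudocount of 0.1, no filter, a filter of 5 TPM, upper quartile and median-of-ratios scaling, fits of only the compared groups, an added limit of 1 on the log2 change, a block for the replicate number of each line, and leaving out single libraries. The fit was checked on simulated data for Panc1 Holoclone against Paraclone cells with 16093 genes. It called 78 of 110 genes with a simulated log2 change of 1 and 79 of 90 with a change of 2, 0 of them in the wrong direction, and 13 unchanged genes. Positions come from GENCODE 44 and promoters from RefSeq, both on GRCh38. Values were tabulated with pandas 2.3.3.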

Additional observations from a re-analysis of the deposited data

Results flagged for a closer look

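The Holoclone against Paraclone change differed between Panc89 and Panc1 for 7 of the 9 genes by the test of the difference itself, as the change in Panc89 minus that in Panc1 on the log2 scale. Of all genes 35.1% passed this test, 14.8% above and 20.4% below 0. The differences were 1.89 for *HLA-B* (limma adjusted p = 0.0025), 1.66 for *HLA-C* (0.00013), 0.92 for *HLA-E* (0.031), 0.77 for *B2M* (0.012), 1.02 for *TAP1* (0.0069), 1.01 for *TAP2* (0.043) and 1.02 for *TAPBP* (0.0065). For *HLA-C* both changes passed the test, in opposite directions, and their libraries did not overlap within either line. For *HLA-B* the Panc89 change passed, for *HLA-E*, *B2M*, *TAP1* and *TAPBP* the Panc1 change passed, and for *TAP2* neither did. The differences of *HLA-E* and *TAP2* no longer passed with no filter on low values. With 1 of the 12 libraries left out, *HLA-E* was lost for 7 of them and *TAP2* for 8.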

How the results depend on the processing

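Of 1062 values of the 9 genes under the alternatives, 954 kept their direction and side of the threshold, 61 lost the call, 19 gained it and 28 changed sign, all of these without a call. With libraries left out in turn, the count of members called ran from 5 to 6 between the parental lines, 5 to 6 between the Panc1 clones, 2 to 4 between the Panc89 clones and 5 to 8 for the difference between the lines. Against parental cells it was 0 for Panc1 Holoclone, 4 to 6 for Panc1 Paraclone, 0 to 1 for Panc89 Holoclone and 0 to 4 for Panc89 Paraclone cells, where it was 0 without parental replicate 1 or 3 and 4 without parental replicate 2. With an added limit of 1 on the log2 change, 1 gene in place of 6 was called between the Panc1 clones and 1 in place of 6 in Panc1 Paraclone against parental cells. The same limit took the count from 6 to 4 between the parental lines, where *TAP1* and *TAPBP* were lost, from 3 to 2 between the Panc89 clones, where *HLA-C* was lost, and from 7 to 5 for the difference between the lines, where *B2M* and *HLA-E* were lost. Median-of-ratios scaling gave 1 in place of 0 in Panc89 Holoclone against parental cells, namely *TAPBP* at −0.47, and fitting the compared groups alone gave 0 in place of 2 in Panc89 Paraclone against parental cells. The replicate numbers did not pair the samples, as correlations of same-numbered deviations over 18 pairs ran from −0.318 to 0.190, and the replicate block gave 5, 6, 3, 7, 0, 6, 0 and 2 members called in the comparisons in the order of the report, with *TAP1* between the parental lines lost at 0.61 (limma adjusted p = 0.0631). Between the Panc89 clones, *HLA-E* changed sign under upper quartile and median-of-ratios scaling, at −0.037 and −0.068, and *TAP1* under the latter, at −0.012, and in Panc89 Holoclone against parental cells *B2M* did so at −0.045 and −0.042. With libraries left out, sign changes occurred for *B2M* between the parental lines (−0.090 to 0.23), for *NLRC5* between the Panc1 clones (−0.35 to 0.060), for *HLA-E* (−0.12 to 0.17), *TAP1* (−0.050 to 0.27) and *TAPBP* (−0.34 to 0.13) between the Panc89 clones and for *HLA-F* in the difference between the lines (−0.32 to 0.036). Against parental cells they occurred for *HLA-C* (−0.11 to 0.061) and *HLA-F* (−0.16 to 0.27) in Panc1 Holoclone, *TAP2* (−0.060 to 0.28) in Panc1 Paraclone, *B2M* (−0.12 to 0.20), *HLA-C* (−0.0028 to 0.36) and *NLRC5* (−0.72 to 0.15) in Panc89 Holoclone and *B2M* (−0.28 to 0.046) and *TAP2* (−0.50 to 0.050) in Panc89 Paraclone cells. The cause was not tested. As TPM carry no depth, what the depth limits could not be read from these values.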

Other observations

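Class II genes, which present peptides from outside the cell and are controlled by *CIITA*, reached at most 7.84 TPM in any library, with the exception of *CD74*. The list counted below also holds *CIITA* itself and *CTSS*. Of 14 listed genes 9 passed the filter, and 8 of these were higher in parental Panc89 than in parental Panc1, 5 were higher in Panc89 Holoclone than in Paraclone cells, and 5 were lower in each Panc89 clone than in parental Panc89. Of all genes 27.5% and 22.4% were higher in the first comparisons, and 8.61% and 10% were lower in Panc89 Holoclone and Paraclone against parental cells. With a filter of 5 TPM the 4 counts were 2, 1, 1 and 1, as fewer of these genes were tested. Between the Panc89 clones 3 were higher without Paraclone replicate 1 or 3 and under median-of-ratios scaling. *CD74*, the invariant chain, had 21.4, 8.91 and 21.8 TPM in parental Panc89, 5.37, 4.31 and 6.46 TPM in Panc89 Holoclone and 0.330, 0.375 and 0.450 TPM in Panc89 Paraclone cells, without overlap between the groups. Its log2 difference from parental cells was −1.44 ± 0.28 in Holoclone and −3.63 ± 0.28 in Paraclone cells (SE, limma adjusted p = 0.0014 and 3.6e-07). *HLA-DRA* had 6.73, 2.13 and 6.46 TPM in parental Panc89 and at most 0.361 TPM in Panc89 Paraclone cells, and at most 0.0654 TPM in Panc1 cells. The summed leukocyte and endothelial markers were also higher in parental Panc89 than in Panc89 Paraclone cells, and their part in these values was not tested.

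Of 15 genes of class I-like molecules 12 passed the filter. *MICB*, a ligand of the activating receptor NKG2D of natural killer cells, had 43.8 to 76.3 TPM in parental Panc1 and 1.27 to 2.38 TPM in parental Panc89, and was lower in parental Panc89 by −4.34 ± 0.42 (SE, limma adjusted p = 2.1e-07). *ULBP2*, another ligand of this receptor, had 0.652 to 0.947 TPM in parental Panc1 and 17.1 to 18.5 TPM in parental Panc89, and was higher by 3.38 ± 0.19 (SE, limma adjusted p = 4.2e-10). *MICA* was lower in Panc89 Holoclone than in Paraclone cells by −1.29 ± 0.24 (SE, limma adjusted p = 0.00064), and *MR1*, which presents microbial metabolites, was higher by 1.55 ± 0.26 (SE, limma adjusted p = 0.00028). *FCGRT*, the neonatal Fc receptor, was higher in Holoclone than in Paraclone cells of both lines, by 2.10 ± 0.38 in Panc1 and 1.22 ± 0.38 in Panc89 (SE, limma adjusted p = 0.00044 and 0.019).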
